A study of Homo sapiens with 4 samples.

Results

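The subject is the list of genomic regions at which RNA recovered with an antibody to SRSF1 exceeded input RNA in ZCCHC7-overexpressing (ZCCHC7-OE) RKO cells, a human colorectal cancer line. All 194 regions that the authors called for this genotype were taken, with the summits of a region kept together, out of 423 regions called in the series when the 229 of the wild type list are added. The list compares 1 IP library (690876 tags) with 1 input library (97545 tags), both labelled ZCCHC7-OE, and the matching pair of wild type RKO libraries held 1070075 and 142404 tags. The labels name neither the vector, the clone nor the level of the overexpression, and the protocol text describes an anti-m6A step beside the SRSF1 antibody. With 1 library a side there was no test of any difference between conditions, and every interval below covers counting error only. Which library a list came from was read from the initials in the file headers. Neither ZCCHC7 nor SRSF1 held a region, so the list offers no check of the genotype label.

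SRSF1 is an SR protein that binds purine-rich sequences in exons and helps the spliceosome to choose splice sites, and it is an oncogenic splicing factor in several epithelial tumours. ZCCHC7 is a zinc-knuckle protein of the TRAMP complex, which marks nuclear RNA for degradation or trimming by the exosome. A region is a stretch over which the peak caller found more IP tags than the local input predicts, and its summit is the base with most tags.

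Base sequence was at hand for 5 summits, namely those where the 30 bases around the summit of most tags lay inside a RefSeq promoter window or miRNA hairpin (GRCh38.p14). They are shown because SRSF1 is known for GA-rich sites. Capitals mark GGAGA or GAAGAA, and GGAGGA was searched as well. Each line reads 5′ to 3′ on the strand of the named gene.
EEF1A1, chr6:73521085-73521114, minus strand: aagtgatgtcgtgtactggctccgcctttt
KLHDC4, chr16:87765816-87765845, minus strand: aagacggccgccaagatGGAGAAGAAggtg
MIR3916, chr1:247202014-247202043, minus strand: agaagagGAAGAAauggcugguucucaggu
LOC124907854, chr2:87348800-87348829, minus strand: gcggcgcggcGGAGAggcggacagcggcgg
IMP4, chr2:130343145-130343174, plus strand: gcagcgctcagcccaGGAGAggaaggagcg
In KLHDC4 the matches to GGAGA and GAAGAA overlap.

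A match was present on the printed strand in 4 of the 5 windows, and the EEF1A1 window held none on either strand. Over the middle 30 bases of 35116 RefSeq promoter windows, 14.2% held at least 1 of the 3 motifs on either strand (GGAGA 9.22%, GAAGAA 1.83%, GGAGGA 4.16%). Purines made up 76.7% of the KLHDC4 window, 73.3% of the LOC124907854 window, 70.0% of the MIR3916 and IMP4 windows and 40.0% of the EEF1A1 window, beside a median of 50% over the promoter windows. The middle bases of the promoter windows lie upstream of the transcript start, whereas the KLHDC4 summit is in coding sequence and MIR3916 is a hairpin. The promoter values are therefore not a matched background for these windows. The EEF1A1 region was the deepest of these, with 562 IP tags against 81 in KLHDC4, 49 at MIR3916, 20 at LOC124907854 and 16 in IMP4. The windows were set by where a sequence was available outside chromosome 8. A match is a description of letters, not a binding site.

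The 194 regions spanned a wide range of depth. The summit of most tags in a region held between 8 and 6876 IP tags, with a median of 46, and 108 regions (55.7%, 95% exact binomial interval 48.4 to 62.8) held fewer than 50. Only 9 regions reached 500 tags. Regions ran from 154 to 3767 bp, with a median of 227 bp, and 22 of them had more than 1 summit. Fold enrichment, which is the authors' own value throughout, ranged from 1.99 to 58.2 with a median of 4.62. It was at least 10 at 34 regions and at least 20 at 14. The authors' q-value was at most 0.05 at 101 regions (52.1%). The lowest -log10 p in the list was 2.44, at RNU4ATAC, 1 CAPN2 region of 34 tags and RYR2, just inside the authors' threshold of 2.30.

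Few tags in the input set the fold at most regions. At 113 regions (58.2%, 51.0 to 65.3) the local input background was the genome-wide level of 0.0716 tags, and there the fold followed the IP tags alone. In the plot of tags against fold these regions form the upper edge. The regions below that edge had input tags of their own. MT-RNR2, the mitochondrial large ribosomal RNA, had the most IP tags and an input background of 421 tags, which left a fold of 2.30.

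**Figure D1:**
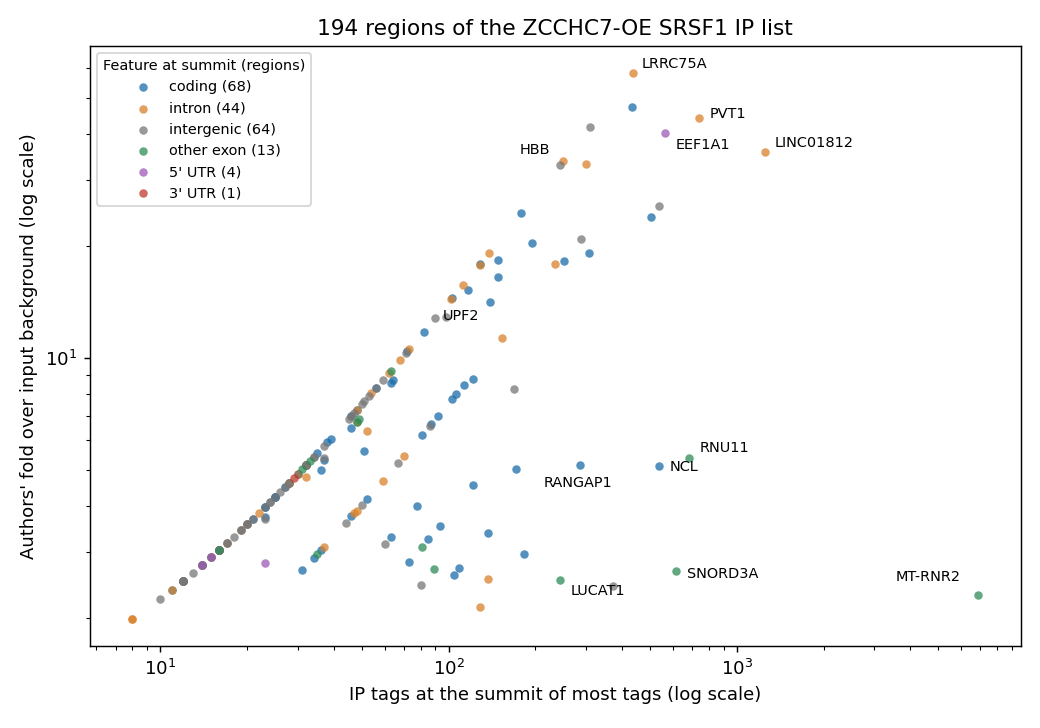
IP tags at the summit of most tags (x, log scale) against the authors' fold over the input background (y, log scale) for the 194 ZCCHC7-OE regions, 1 point a region, coloured by the feature at the summit. Regions at the genome-wide input background lie on the upper edge, LRRC75A leads by fold at 58.2, and MT-RNR2 leads by tags at 6876 with a fold of 2.30.

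By feature, the summit of most tags lay in coding sequence at 68 regions (35.1%, 28.4 to 42.2), in intergenic sequence at 64 (33.0%, 26.4 to 40.1), in introns at 44 (22.7%, 17.0 to 29.2) and in exons of non-coding transcripts at 13 (6.70%, 3.62 to 11.2). The 5′ UTR held 4 summits, EEF1A1, FAM3C and RECQL4 among them, and the 3′ UTR held 1, in GLMP, which TMEM79 overlaps. Coding regions had a median of 63.5 tags, intronic regions 48, and intergenic regions 26.5. Outside CAPN2, UBE2Q1 and AVEN the coding median was 47 tags. The share with the input at the genome-wide level differed by feature. That level applied at 4 of 13 exons of non-coding transcripts (30.8%, 9.09 to 61.4), at 27 of 68 coding regions (39.7%, 28.0 to 52.3), at 29 of 44 intronic regions (65.9%, 50.1 to 79.5) and at 50 of 64 intergenic regions (78.1%, 66.0 to 87.5). The 3 genes with most regions supplied 26 of the 68 coding regions. Without them the coding share was 25.0% (an alternative chosen after the data were seen), and with each gene counted once it was 23.0%, so the coding share rests in part on CAPN2, UBE2Q1 and AVEN.

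A gene lay under the summit at 130 regions, and at 17 of these more than 1 gene did. The list has no strand, so overlapping genes cannot be told apart. In all 112 genes had a summit of most tags, 0.191% of the 58735 annotated genes. Protein-coding genes took 105 of the 130 regions (80.8%, 72.9 to 87.2) and numbered 72. Long intergenic non-coding RNAs had 6 regions of unequal depth. They held 1256 tags in LINC01812, 738 in PVT1, 680 in AL360012.1, whose position RNU11 shares, 70 in GMDS-DT, 17 in LINC02405 and 14 in LINC01322. When each region was given to its first-listed gene alone, 97 genes remained, of which 84 had 1 region, 10 had 2 and 3 had at least 3.

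Among long non-coding RNAs the leading region lay in an intron of LINC01812, at chromosome 2, 67807666 to 67808161. Its highest summit held 1256 IP tags, or 1818 per 1000000 (1719 to 1921), over an input background of 4.00 tags, and a neighbouring summit in the region held 122. The fold was 35.7, and the wild type IP had 960 tags there (897 per 1000000). An intron of PVT1, a long non-coding RNA gene beside MYC, followed with 738 tags at a fold of 44.1, and a companion summit of 636 tags. LUCAT1, a stress-induced non-coding RNA, had 243 tags in an exon but an input background of 13.0, so its fold was 2.52. Of the 9 abundant nuclear long non-coding RNAs listed, PVT1 alone held a summit, beside 0.191% of all annotated genes. MALAT1 and NEAT1 did not hold any.

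The highest fold of the list, 58.2, belonged to an intron of LRRC75A, which LRRC75A-AS1 overlaps, at chromosome 17, 16456123 to 16456544. It held 435 IP tags (630 per 1000000, 572 to 692) with the input at the genome-wide level. Intronic regions were spread over 32 regions in protein-coding genes and 12 in other genes. Those with 100 tags or more included ANKDD1A, ADAMTSL1 (138 tags, fold 19.1), TBC1D5 (128 tags, fold 17.8) and ZC3H12B (102 tags, fold 14.4). The ANKDD1A region was unusually long, 3472 bp, and carried 10 summits of 41 to 234 tags, all intronic. Introns of PTMS, the gene of the small acidic protein parathymosin, and of the zinc finger gene ZNF429 held 129 and 137 tags but backgrounds of about 8 and 7 tags, and folds of 2.13 and 2.54.

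Small structured RNAs were a further group. Of the 4 minor-spliceosome RNAs, which serve the rare U12-type introns, 3 held a summit and RNU12 did not, beside 0.191% of all annotated genes. The U11 gene RNU11 was the deepest with 680 IP tags (984 per 1000000, 912 to 1061) over an input background of 17.0, and AL360012.1 shares the position. RNU6ATAC held 81 tags over 3.00, and RNU4ATAC, which lies within CLASP1 and AC012447.1, held 35 over 0.999. Their folds were 5.39, 3.11 and 2.97, and the authors' q-value was at most 0.05 only at RNU11. Tags and fold ran in the same order over the 3 genes, with RNU11 highest in both.

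Of 26 major spliceosomal and other abundant small RNAs, SNORD3A alone had a summit, beside 0.191% of all annotated genes. SNORD3A encodes the U3 small nucleolar RNA, which guides early cleavage of pre-ribosomal RNA. It held 617 tags (893 per 1000000, 824 to 966) over a background of 32.0, a fold of 2.67. Copies of U1 were represented by RNU1-11P, within PHACTR1, with 33 tags and no wild type region, by RNU1-88P with 16 tags and by the unnamed family member RF00003 with 89 tags. U1, U3 and other such genes have near-identical copies, so the position of their tags is uncertain. IMP4, the gene of a protein of the U3 particle, held 16 tags at codon 26 in the deposited annotation, a summit that lies 110 bp upstream of the RefSeq start. MIR3916, within AL390728.4, held 49 tags at a fold of 6.86.

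Apart from the 3 genes with most regions, 42 coding regions lay in 34 genes, and most were narrow. A region took up a median of 7.12% of its gene's coding sequence. Summits were found along the whole length of coding sequence, with 13 in the 5′ part of its length, 14 in the middle and 15 in the 3′ part when it was cut into 3 equal lengths, and 9 of the 42 lay in the last exon. They held 11 to 537 tags with a median of 47. The authors' q-value was at most 0.05 at 21 of the 42 (50%, 34.2 to 65.8), beside 52.1% in the whole list.

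**Figure D2:**
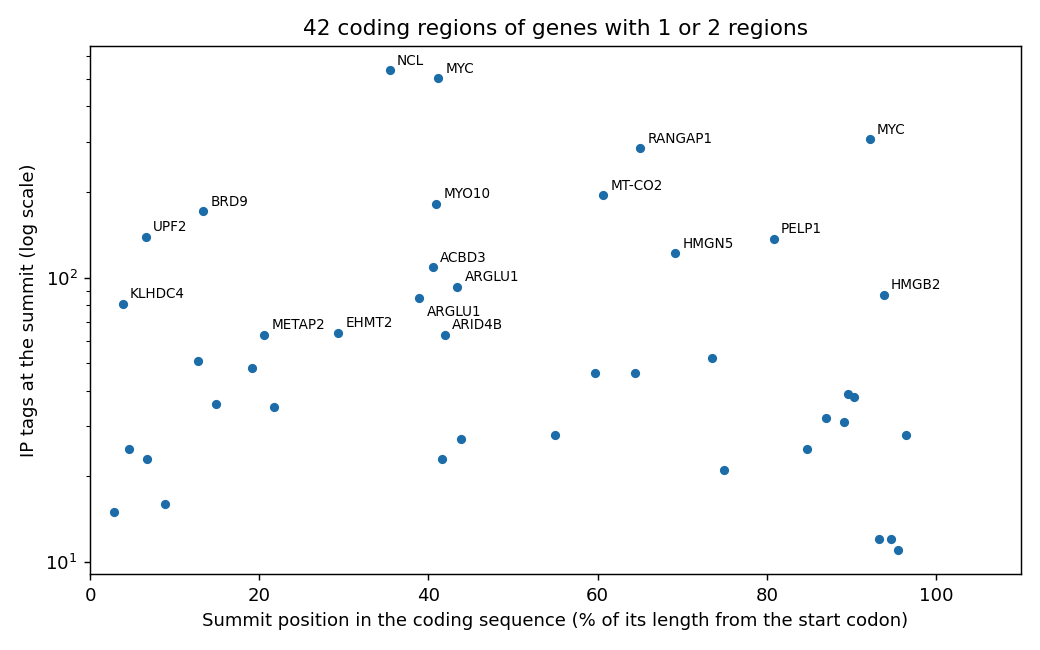
Position of the summit of most tags in the coding sequence (x, percent of its length from the start codon) against IP tags (y, log scale) for the 42 coding regions of genes with 1 or 2 regions, 1 point a region, named at 60 tags or more. Summits lie from 2.87% to 96.5% of the coding sequence, and NCL and MYC stand highest at 537 and 502 tags.

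Of the 20 genes of nuclear and chromatin proteins listed, 4 held a summit, NCL, HMGN5, HMGB2 and ATAD2, beside 0.191% of all annotated genes. NCL, the gene of the nucleolar protein nucleolin, had 537 tags (777 per 1000000, 713 to 846) at codon 252, in exon 4 of 14, over an input background of 14.0. HMGN5, a nucleosome-binding protein gene, had 122 tags at codon 196 in the last of 7 exons. HMGB2, a DNA-bending protein gene, had 87 tags at codon 197 of a coding sequence of 630 bp. ATAD2, a bromodomain ATPase gene, had 48 tags at codon 266 with the input at the genome-wide level. The folds were 5.12 for NCL, 4.56 for HMGN5, 6.64 for HMGB2 and 7.26 for ATAD2. The wild type IP, a deeper library, held 755, 60, 134 and 138 tags at the same places. Per 1000000 these were 706, 56.1, 125 and 129, against 777, 177, 126 and 69.5 in ZCCHC7-OE.

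Other narrow coding regions of 100 tags or more lay in genes of varied function. RANGAP1, which activates the GTPase of Ran, had 285 tags at codon 383 over a background of 7.00. MYO10, an unconventional myosin gene, had 182 tags at codon 848, and BRD9, a bromodomain subunit gene of chromatin remodelling complexes, had 171 at codon 80. UPF2 had 139 tags at codon 84 over a background of 0.462. Its fold of 14.1 was the highest among these coding regions outside MYC and the mitochondrial region. UPF2 was the 1 nonsense-mediated decay gene of 14 with a summit, beside 0.191% of all annotated genes. PELP1, a nuclear receptor coregulator gene, had 137 tags at codon 955, and ACBD3, a Golgi protein gene, 109 at codon 215. Folds were 5.15 for RANGAP1, 2.97 for MYO10, 5.03 for BRD9, 3.39 for PELP1 and 2.73 for ACBD3. ACBD3 did not pass the q-value. Nucleolin, HMGB2, HMGN5, RANGAP1 and PELP1 are known for long acidic stretches, and the codons for glutamate are all purine. The coding sequence of these 5 genes was not read here, so whether their summits lie on such codons was not tested.

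Some genes had a pair of regions. ARGLU1, the gene of an arginine- and glutamate-rich splicing cofactor, had 85 tags at codon 107 and 93 at codon 119, in neighbouring exons, and neither passed the q-value. GIGYF2, a translational repressor gene, had 46 tags at each of codons 789 and 853. DEAF1, a transcription factor gene, had 38 and 27 tags, and MYO6, a myosin gene, 52 and 21. PSMB1 had 32 tags in its last exon and 23 in its first. It was the 1 proteasome subunit gene of 38 with a summit, beside 0.191% of all annotated genes.

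In other genes the regions took in much of the coding sequence. MYC, the proto-oncogene that drives growth, had 502 tags at codon 188 (fold 23.9) and, in a second region of 3 summits with 306, 253 and 307 tags, a highest fold of 19.1. Its regions took up 72.3% of the coding sequence and 95 of the 476 bp of 3′ UTR. MAF, another transcription factor gene, was covered over 99.8% of the coding sequence and none of the 622 bp of 3′ UTR, at only 35 and 12 tags. CDKN1B, the gene of the cell cycle inhibitor p27, was covered over 69.6% of its coding sequence at 23 tags.

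CAPN2, UBE2Q1 and AVEN carried regions exon after exon. CAPN2, the gene of the calcium-dependent protease calpain-2, had 13 regions of 23 to 148 tags with a median of 78, and 8 of them passed the q-value. They touched 14 of its 21 exons and took up 80.2% of the 2103 bp of coding sequence, 1 of the 309 bp of 5′ UTR and none of the 1161 bp of 3′ UTR. The 7 exons without a region were exon 21, which holds 24 coding bp, and 6 internal exons of 12 to 86 bp. Exon 12, the longest internal exon at 212 bp, held the most tags.

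UBE2Q1, a ubiquitin-conjugating enzyme gene, had 7 regions of 25 to 432 tags, and 6 passed the q-value. They covered 97.5% of the 1269 bp of coding sequence, all 80 bp of 5′ UTR and none of the 1861 bp of 3′ UTR, and reached 12 of 13 exons. Exon 1 held 432 tags (625 per 1000000, 568 to 687) at a fold of 47.4, the second highest of the list. AVEN, the gene of a caspase inhibitor, had 6 regions of 32 to 251 tags on its 6 exons, all past the q-value. They covered 100% of the 1089 bp of coding sequence, 66 of the 130 bp of 5′ UTR and 42 of the 386 bp of 3′ UTR. CHRM5 overlaps AVEN exons 1 and 2, and UBE2Q1-AS1 overlaps UBE2Q1 exon 4.

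Regions in these genes lay over exons and ran into the flanking introns. Tags were extended to 154 bp, longer than many of these exons, so whether intronic RNA was recovered was not tested. Intronic bases made up 57.3% of the region length in UBE2Q1, 45.6% in CAPN2 and 34.0% in AVEN. Introns of AVEN ran to 171345 bp, of which regions took in 617 bp, and in CAPN2 1415 of 60114 intronic bp lay in a region. In UBE2Q1, whose introns are short, the figure was 1802 of 6847 bp. Beyond the coding sequence at its 3′ end, regions took in no base in CAPN2 or UBE2Q1 and 42 bp in AVEN. Whether copies of the coding sequence from outside the locus added tags was not tested.

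**Figure D3:**
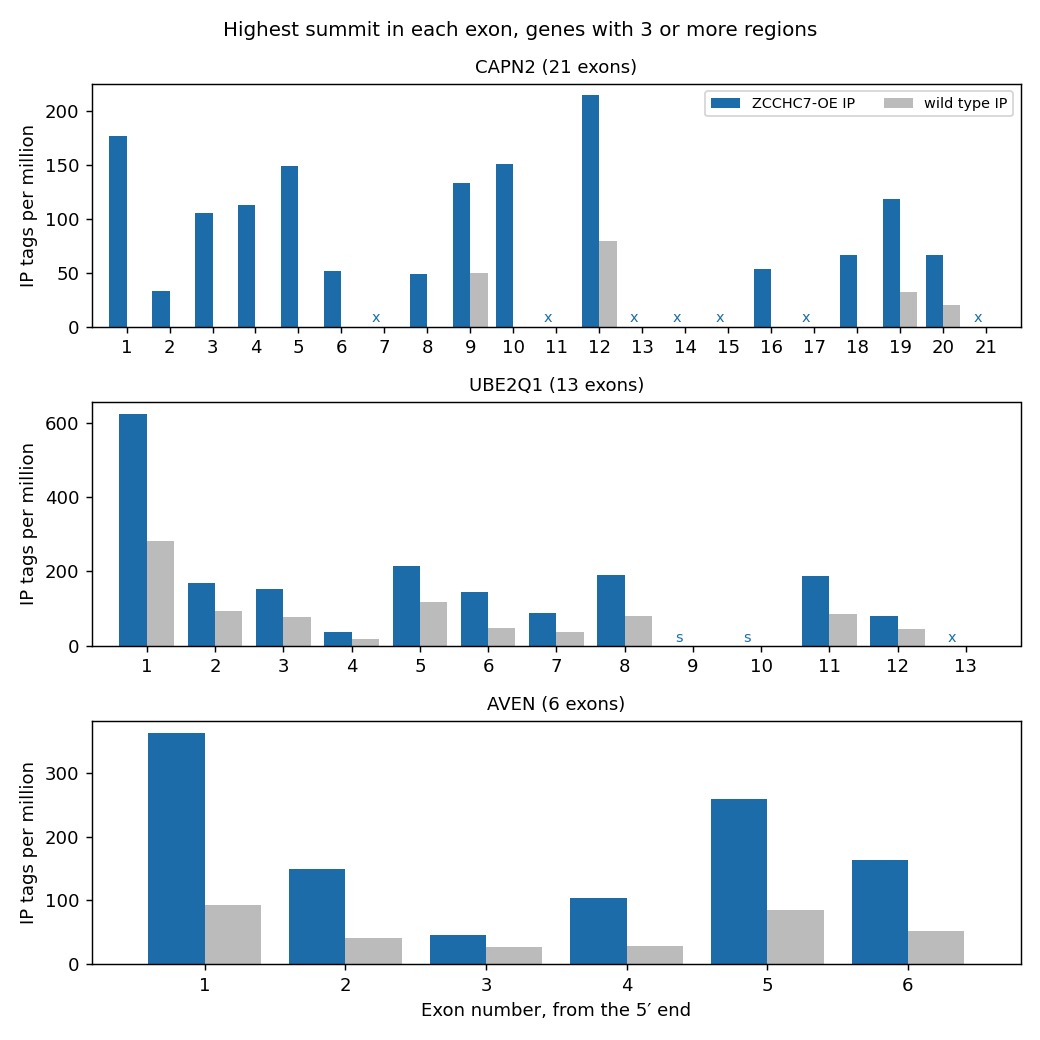
Highest summit in each exon of CAPN2, UBE2Q1 and AVEN (x, exon number from the 5′ end) in IP tags per 1000000 (y) for the ZCCHC7-OE IP (blue) and the wild type IP (grey), 1 library each, with no error bars. An x marks an exon with no ZCCHC7-OE region and an s an exon inside a region but with no summit of its own. The blue bar is the higher at each exon with both, 4 in CAPN2, 10 in UBE2Q1 and 6 in AVEN.

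Set beside wild type, tags per 1000000 were higher in the ZCCHC7-OE IP at each of the 4 CAPN2, 10 UBE2Q1 and 6 AVEN exons that had a summit in both lists. In CAPN2 exon 12 the values were 214 in ZCCHC7-OE and 79.4 in wild type, in UBE2Q1 exon 1 they were 625 and 281, and in AVEN exon 1 they were 363 and 93.5. The exons of a gene share 1 library a genotype, so they are not replicates. The 142 regions with a wild type partner were all taken from the ZCCHC7-OE list, and the values use IP tags alone. At 115 of them the value was higher in ZCCHC7-OE. The median log2 ratio was 0.38, with a range of -0.89 to 2.30. The direction at these genes was therefore also the commoner direction of the list.

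Some regions fell on stretches of genes that expression vectors often carry. Among the 10 genes listed for such stretches, EEF1A1 and HBB held a summit, beside 0.191% of all annotated genes, and GH1 was reached by a region. PGK1, ACTB, RNU6-1, RPPH1, RN7SK and SNORD118 had no region, and 1 listed gene is not reported here. The EEF1A1 region, in the gene of translation elongation factor 1 alpha, held 562 tags (813 per 1000000, 748 to 884) at a fold of 40.2. It lay across the RefSeq start, with 224 bp upstream and 126 bp downstream and the summit 68 bp upstream, and held no coding base, and the deposited annotation places the summit in the 5′ UTR of a longer transcript. EEF1A1 was also the 1 translation factor of 12 with a summit, beside 0.191% of all annotated genes.

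HBB, the beta-globin gene, held 250 tags (362 per 1000000, 318 to 410) at a fold of 33.9, with the input at the genome-wide level. Its region of 579 bp lay within the gene and included 152 bp of exon 3, 129 of them coding, and otherwise intron 2, and no base of exons 1 or 2. The region at GH1, the growth hormone gene, held 300 tags at a fold of 33.1. It took in 175 exonic bp of the last of 5 exons and ran 455 bp beyond the gene, with the summit in an intron of the related CSHL1. The other blood genes listed, HBA1, HBA2 and PTPRC, had no region, nor did the other pituitary and placenta genes, GH2, CSH1, CSH2, PRL and POMC. None of the 8 colon epithelium markers, EPCAM and KRT8 among them, or the 4 fibroblast markers had a region. Absence from lists this small is near the background, as 0.191% of all annotated genes held a summit. The wild type IP also had regions at these places, with 483 tags at EEF1A1 (451 per 1000000), 168 at HBB (157) and 204 at the GH1 region (191), against 813, 362 and 434 per 1000000 in ZCCHC7-OE. Whether vector-borne copies added tags in either genotype was not tested.

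Mitochondrial RNA took the deepest region and the longest. MT-RNR2 alone held 27.3% of the tags summed over the 194 highest summits, and the 10 deepest regions together held 50.6%. The longest region ran from position 7708 to 11474 of the mitochondrial genome, from MT-CO2, which encodes a cytochrome oxidase subunit, to MT-ND4, which encodes a subunit of complex I. Its 13 summits held 115 to 195 tags, but their input backgrounds ranged from 0.323 to 14.8 and their folds from 1.76 at the first MT-CO2 summit to 20.4 in MT-CO3. Of 37 mitochondrial genes, 2 held a summit of most tags, beside 0.191% of all annotated genes. When all summits were counted 9 did, and all of these but MT-RNR2 lay in the longest region. Regions on chromosome 1 between 629191 and 634144 lay on nuclear copies of mitochondrial sequence, MTND1P23 with 48 tags and MTATP6P1 with 63 among them, and reads from copies may not be separable.

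Intergenic regions were shallow and clustered. Of the 64, 36 (56.3%, 43.3 to 68.6) lay in 7 blocks of 3 or more regions less than 1000000 bp apart, and most blocks adjoin centromeres, which consist of satellite repeats. On chromosome 4, 7 regions between 49092727 and 49711881 held 16 to 71 tags. On chromosome 5, 7 regions between 49601498 and 49661848 held 12 to 50. On chromosome 1, 6 regions between 143185100 and 143264795 held 10 to 53, and 3 regions between 125178857 and 125182742 held 32, 37 and 244. The last of these values had a fold of 33.1. On chromosome 16, 5 regions held 12 to 21 tags and none passed the q-value. Unplaced scaffolds held 8 intergenic regions, 5 of which formed 1 of the blocks with 12 to 90 tags. Reads from repeats can be placed at any of several copies, so these positions are uncertain.

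Outside the blocks a few intergenic regions were deep. A site on chromosome 4 at 176479539, lying 147427 bp from the nearest gene, held 538 tags at a fold of 25.7. A site on chromosome 3 at 93470345, lying 373094 bp from the nearest gene, held 310 tags at a fold of 41.8. The input there was at the genome-wide level, and whether the site lies in repeats was not tested. On chromosome 15, a site at 34437347, only 3 bp from an annotated gene, held 288 tags at a fold of 20.8. A site on chromosome 17 at 41109988 held 373 tags, but over an input background of 21.0, and its fold was 2.44.

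Several groups tied to the proteins named in the study had no region. They were the 21 annotated genes of TRAMP, related adaptors and the nuclear exosome, the 16 SR and SR-related protein genes, the 19 known SRSF1 splicing targets and the 87 ribosomal protein genes. With 0.191% of all annotated genes holding a summit, a count of 0 in groups of this size is near the background. A gene without a region may still have bound RNA that was not detectable at this depth.

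A wild type region overlapped 142 of the 194 (73.2%, 66.4 to 79.3), and 52 were in the ZCCHC7-OE list alone. The 14 regions with a fold of at least 20 all had a wild type partner. Regions in the ZCCHC7-OE list alone were shallower, with a median of 25 tags and at most 122, against a median of 51.5 tags and at most 6876 in those with a partner. The q-value was at most 0.05 at 10 of the 52 (19.2%, 9.63 to 32.5) and at 91 of the 142 (64.1%, 55.6 to 72.0). CAPN2 supplied 10 of the 52, and 5 of the 11 among them with 50 tags or more. The others of that depth were ACBD3 (109 tags), RF00003 (89), 1 of the ARGLU1 regions (85), an intron of NLRP1 (59) and intergenic sites on chromosomes 12 and 17 (80 and 60). None of these others passed the q-value, and their folds ran from 2.46 to 4.67. Depth differed between the genotypes and each list had its own call, so absence from the wild type list does not show a difference.

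**Figure D4:**
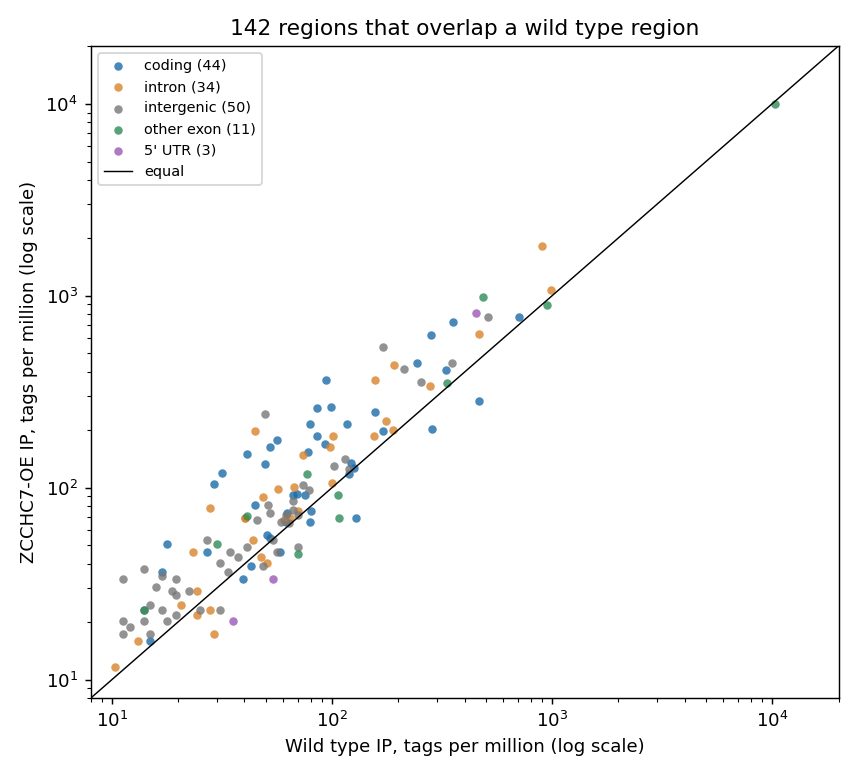
IP tags per 1000000 in wild type (x, log scale) and ZCCHC7-OE (y, log scale) at the 142 ZCCHC7-OE regions that overlap a wild type region, 1 point a region, 1 library a genotype, coloured by feature, with the line of equal values. Of the 142 points 115 lie above the line, and MT-RNR2 lies just below it at the upper right.

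Regions with fewer tags per 1000000 in ZCCHC7-OE than in wild type included UPF2, with 201 against 286, ATAD2, with 69.5 against 129, and SNORD3A, with 893 against 944. NCL stood at 777 against 706 and PVT1 at 1068 against 986. These values use IP tags alone, and the input backgrounds differed between the genotypes.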

How the data were processed

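Per the file headers, the authors called regions with MACS 2.1.0.20150420, the IP library against the input, at a p-value threshold of 0.005, with an effective genome of 209714707 bp, tags extended to 154 bp, all duplicates kept and the larger library scaled to the smaller. FastQC 0.11.5 and HOMER are listed, per the submitters' processing notes. The aligner is not given in the sources used here. The deposited pileup is a signal, the IP fragments stacked on a summit after scaling to the smaller input, and the deposited fold is a ratio of pileup plus 1 to input background plus 1. Significance was deposited by the authors as -log10 of the p-value and q-value.

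Pileup times 690876 over 97545 gave whole IP tags within 0.1 at 238 of 238 summits, and the input background was solved from fold and pileup. Computing used SciPy 1.17.1 and NumPy 2.4.6 under Python 3.11.15, with Matplotlib 3.10.9 for plots. The recovery of tags and the placement were tested on simulated data. Tag intervals are exact Poisson and shares exact binomial (Clopper-Pearson), at 95%, for counting error only, since without molecular identifiers several tags can stem from a single molecule. A region was placed at its summit of most tags on the deposited annotation of 58735 genes (build not stated, coordinates as in the files) by the first that applied of coding sequence, UTR (3′ before 5′), other exon and intron, and otherwise as intergenic. Codons and coverage use the coding transcript with the longest coding sequence, among those tagged basic. Wild type regions overlapping by 1 bp are partners, given by their summit of most tags.

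Named are the regions of most tags and highest fold, genes with 3 or more regions and list members with a summit. MYO10, BRD9, the paired genes, MAF, CDKN1B, LUCAT1, the intronic examples and the regions in 1 list alone were named with their values in view. The regions and gene lists were chosen with earlier results of these data known. Splicing tables were not used here, and 1 gene of the lists is not reported here.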

Additional observations from a re-analysis of the deposited data

How the results depend on the processing

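Keeping the regions with a q-value of at most 0.05 left 101 regions, 64 genes under a summit, an intergenic share of 25.7% and a wild type overlap of 90.1%. Keeping those at or above the median fold left 100 regions and 63 genes. Fewer regions entered by construction. The coding share was 23.0% with each gene counted once and 25.0% without CAPN2, UBE2Q1 and AVEN, which is fewer coding regions by construction. Adding all summits of a region gave the 10 deepest regions 53.1% of tags, through more summits by construction. In all, 17 of 26 alternatives left a count within 1.5 times its reported value or a share inside its reported interval. The motif share over all summits was not run, since no genome was used here. No paired analysis was possible because each group has 1 library. Of the regions, 108 had fewer than 50 IP tags, and 113 had no local input above the genome-wide level, so fold is least certain there.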
